A study of Caenorhabditis elegans with 2 samples.

Results

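The microRNA precursor genes of Caenorhabditis elegans outside the mir-35 to mir-42 and mir-51 to mir-56 series were examined for binding of the B0310.2 protein in early embryos. The members were all nuclear genes of biotype miRNA in the Ensembl annotation of assembly WBcel235 other than those 14 genes, which left 247 of 261 nuclear miRNA genes and of 46890 nuclear genes of every kind. Binding had been mapped by chromatin immunoprecipitation and sequencing with an antibody to GFP in strain OP642 (unc-119 (tm4063) III; wgIs642), whose transgene adds a GFP-FLAG tag to the C terminus of B0310.2. There were 2 biological replicates of this single group, whole embryos of pooled sex taken 0 h after egg bleaching, so no comparison between conditions was possible. Both replicates carried the unc-119 mutation and the tagged transgene and came from 1 strain, and the promoter that drives the transgene is not given in the sources used here. The embryos were whole, so the cells in which a region was bound cannot be told apart.

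MicroRNAs are short RNAs that guide Argonaute proteins to messenger RNAs. They are cut in steps from a longer primary transcript by way of a hairpin, the precursor, and pairing with a target relies mostly on the seed, here bases 2 to 8 of the mature RNA. In C. elegans the first microRNAs, lin-4 and let-7, were found through their control of developmental timing. Some microRNA genes have a promoter of their own and others lie in introns of protein-coding genes, where they can be made from the host transcript.

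The deposited lists hold 30000 ranked regions for each replicate and for both replicates pooled, background included, and a shorter list of 642 peaks selected by IDR (irreproducible discovery rate), which scores whether a region ranks alike in replicates. The same 642 regions head the pooled list when it is sorted by signal. Each region carries a signal value whose scale is not stated, so signal is compared only within a list, and the signal and position of every region are the authors' own. For each gene the strongest region with its summit within 500 bp of the gene was taken. The lists give no read counts, the depth of the samples is unknown, and a gene with no region in a list may still have been bound below what the list holds.

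Few of the 247 genes lay beside a strong peak. A pooled region of any strength was found at 112 (45.3%), where 37.9% of all nuclear genes had one, and an IDR peak at 9 (3.64%, exact 95% interval 1.68 to 6.8%, counting error only), where 2.64% of all nuclear genes had one. The 9 genes were mir-58.1, mir-90, mir-80, mir-55b, mir-43, mir-44, mir-86, mir-8211 and mir-2211. They were reached by 7 distinct peaks, so the genes are not independent and the interval is too narrow. At 2 of these peaks a gene outside the set was nearer to the summit than the member was. Without the 3 members at them, 6 genes (2.43%) had an IDR peak. How these shares read depends on what they are set against. The share over all nuclear genes takes in 15363 piRNA genes, at 0.15%, and protein-coding genes, at 2.95%, which are much longer. Of all positions of the nuclear chromosomes, a stretch of 94 bp, the members' median length, lies within 500 bp of an IDR peak summit at 0.677%. The members' share was thus near that over all genes and above that over positions. Of the 14 miRNA genes outside the set, 12 had an IDR peak within 500 bp. These genes are not independent either, since mir-54, mir-55 and mir-56 lay within 500 bp of the same summit. No test was made of any of these shares.

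**Figure D1:**
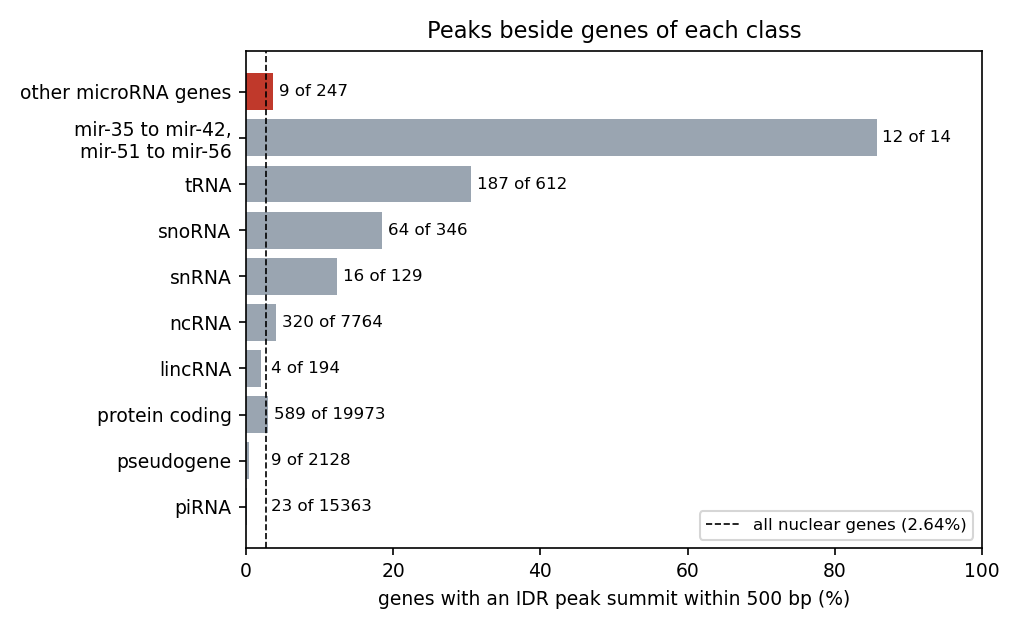
Share of genes with an IDR peak summit within 500 bp, in percent, for the 247 microRNA genes (red) and for other classes of nuclear genes (grey), with the number of genes beside each bar and the share over all nuclear genes as a dashed line. The microRNA genes (9 of 247) sit near the dashed line at 2.64%, far below the 14 other miRNA genes (12 of 14) and tRNA genes (187 of 612). Genes that share a peak are each counted.

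Mature RNAs of 6 of the members with an IDR peak are shown first, with relatives, because their seeds are shared with other members or place them in a family. Those of mir-55b, mir-8211 and mir-2211 are left out. The sequences were read from the RefSeq genome of WBcel235 at the positions of the mature products in the Ensembl annotation, 5′ to 3′, with the seed in capitals. Those shown come from the 3′ side of the hairpin, except that of mir-86, from the 5′ side. The products of mir-58.1 and mir-80 belong to the family related to the fly microRNA bantam, and their seeds differ in the last base, as the sequences below show beside those of mir-81 and mir-82.
mir-58.1: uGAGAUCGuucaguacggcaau
mir-80: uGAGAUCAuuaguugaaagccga
mir-81: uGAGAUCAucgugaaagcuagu
mir-82: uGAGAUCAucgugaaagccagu
The mir-90 product has the seed of mir-62.
mir-90: uGAUAUGUuguuugaaugccccu
mir-62: uGAUAUGUaaucuagcuuacag
The mir-43 product shares its seed with mir-250, and the 3′ product of mir-44 is the same in every base as that of mir-45, while their 5′ products are not identical.
mir-43: uAUCACAGuuuacuugcugucgc
mir-250: aAUCACAGucaacuguuggc
mir-44: uGACUAGAgacacauucagcu
mir-45: uGACUAGAgacacauucagcu
mir-61: uGACUAGAaccguuacucauc
The mir-86 product shares its seed with mir-785.
mir-86: uAAGUGAAugcuuugccacaguc
mir-785: uAAGUGAAuuguuuuguguaga

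The strongest region beside any of the 247 genes was at mir-58.1 (IV: 3233254 to 3233350, plus strand), which lies in an intron of Y67D8A.2 on the same strand. The peak spanned IV: 3232929 to 3233404 with its summit 87 bp upstream of the 5′ end of the precursor gene. Its pooled signal was 267 (rank 142), with 80.8 (rank 144) in replicate 1 and 189 (rank 141) in replicate 2. The place in the order was nearly the same in both replicates, although the summit lay 91 bp upstream in replicate 1 and 135 bp in replicate 2. An annotated noncoding RNA gene, Y67D8A.6, begins 5 bp before the summit and overlaps the precursor on the same strand, so the peak cannot be assigned to mir-58.1 alone. The summit was at -3684 bp from the nearest annotated 5′ end of a protein-coding transcript, one of Y67D8A.2.

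The genes mir-90 and mir-80 lie on the minus strand of chromosome III, and their summits were 8863 bp apart. At mir-90 (III: 8873987 to 8874084), in an intron of K01F9.2 on the same strand, the pooled signal was 206 (rank 259), with 77.5 (rank 161) in replicate 1 and 128 (rank 341) in replicate 2. The summit lay 304 bp upstream of the precursor, 278 bp in replicate 1 and 304 bp in replicate 2. At mir-80 (III: 8865270 to 8865367), which is intergenic, the pooled signal was 202 (rank 270), with 64.3 (rank 284) in replicate 1 and 141 (rank 283) in replicate 2. Its summit lay 158 bp upstream, and the replicates put it 162 and 170 bp upstream. Both genes ranked among the top 642 regions of each replicate, mir-80 at almost the same place in both and mir-90 higher in replicate 1. An antisense noncoding RNA gene, K01F9.6, covers nearly the same stretch as the mir-80 precursor, so a peak there cannot be assigned to either strand.

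The sequence around these 3 summits is given on the plus strand of ce11, with 50 bp to each side and the base at the summit in capitals, because these were the strongest peaks with no other miRNA gene within 500 bp.
mir-58.1, chrIV:3233117-3233217: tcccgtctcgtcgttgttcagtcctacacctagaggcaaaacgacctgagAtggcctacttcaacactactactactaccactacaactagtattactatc
mir-90, chrIII:8874338-8874438: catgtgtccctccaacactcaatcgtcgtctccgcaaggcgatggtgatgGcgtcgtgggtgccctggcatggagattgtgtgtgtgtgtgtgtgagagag
mir-80, chrIII:8865475-8865575: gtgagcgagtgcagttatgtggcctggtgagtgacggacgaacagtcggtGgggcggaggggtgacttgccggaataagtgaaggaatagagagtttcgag
G and C bases made up 45.5% of the window at mir-58.1, 57.4% at mir-90 and 56.4% at mir-80. The mean over all 642 IDR peaks was 48.9% ± 8.53 (SD over windows), and over all 30000 pooled regions 40.4% ± 8.96.

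Short motifs chosen because they were known to be frequent at the peaks of these data were searched on both strands in the 101 bp windows. The first motif was AGAGCG. Another was AGCGCG, and the last was GCGCGC, which can overlap the one before it. None of the 7 windows at the members' IDR peaks held any of them. At least 1 was present in 169 of the 642 windows at all IDR peaks (26.3%), in 9 of the 98 windows at the members' distinct pooled regions (9.18%) and in 5.62% of the windows at all 30000 regions. The 98 windows include 5 with AGAGCG, 4 with AGCGCG and 3 with GCGCGC. With 7 windows the absence is a description only.

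At 2 further peaks a member shared the summit with miRNA genes outside the set. The precursor of mir-55b (X: 13144830 to 13144919, plus strand) lies antisense to mir-55 and was a member only because of its name. The summit (pooled signal 199, rank 280; rank 158 in replicate 1 and 335 in replicate 2) was inside mir-54 and 106 bp from mir-55b. The peak therefore cannot be counted for mir-55b apart from the mir-54 to mir-56 cluster. The genes mir-43 (II: 11889910 to 11890007) and mir-44 (II: 11890023 to 11890118) follow mir-42 on the plus strand, and all 3 are within 500 bp of 1 summit. Its pooled signal was 176 (rank 357). The strongest region near mir-43 and mir-44 had signal 57.1 (rank 379) in replicate 1 and 120 (rank 382) in replicate 2. The pooled summit lay 142 bp upstream of mir-42, 241 bp upstream of mir-43 and 354 bp upstream of mir-44. In replicate 1 the strongest region had its summit closer to the genes, 15 bp upstream of mir-43. The strongest summits of the replicates were thus 225 bp apart, the widest gap at any of these 7 peaks, and may belong to different regions.

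The remaining peaks were at mir-86 with mir-8211 and at mir-2211. The precursor of mir-86 (III: 11936637 to 11936734, minus strand) lies in an intron of Y56A3A.7, and mir-8211 (III: 11936916 to 11936980), on the same strand, overlaps an exon of that gene. Their shared peak had a pooled signal of 162 (rank 435) and its summit 134 bp downstream of the 5′ end of mir-86, which is past the 3′ end by 37 bp. The strongest region near mir-86 in replicate 1 (signal 64.8, rank 278) was another one, with its summit 328 bp downstream, and that near mir-8211 had signal 55.2 (rank 423). In replicate 2 both genes had the same region (signal 109, rank 509). At mir-2211 (I: 9447362 to 9447421, plus strand), which is intergenic, the summit lay 2 bp upstream of the gene (pooled signal 159, rank 454). The ranks were 405 in replicate 1 and 422 in replicate 2, and the summits lay 181 bp downstream and 12 bp upstream.

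The surroundings of these 7 summits did not enter the choice of genes. None of them (0 of 7) lay in a protein-coding promoter, taken as 1000 bp upstream to 300 bp downstream of an annotated 5′ end, and the nearest such end was between 2740 and 11603 bp away. Of all 642 IDR peaks 46.4% lay in a promoter, as did 32.1% of all 30000 regions. A tRNA, snoRNA, snRNA or rRNA gene lay within 200 bp of none of the 7 summits, of 37.7% of all IDR peak summits and of 2.32% of all pooled summits. A noncoding RNA gene of another kind, piRNA and miRNA genes aside, lay within 200 bp of 4 of the 7, of 35.5% of all IDR peak summits and of 7.81% of all pooled summits. No difference from the other peaks was tested.

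**Figure D2:**
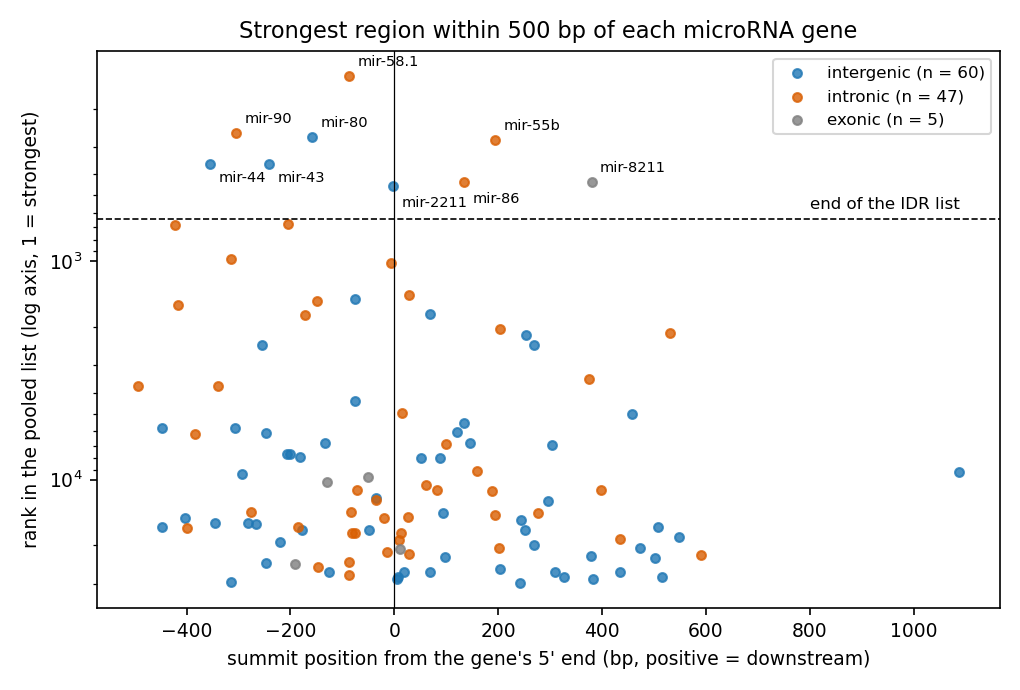
Rank of the strongest pooled region within 500 bp of each gene (log axis, strongest at the top) against the position of its summit from the 5′ end of the gene in bp, for the 112 genes with a region, coloured by where the gene lies. The 9 genes above the dashed line, the end of the IDR list, have summits from 354 bp upstream to 380 bp downstream. The point at 1087 bp is mir-8199, whose annotated gene is 778 bp long.

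Summits took no single position. Over the 112 genes with a pooled region the summit had a median position of 6.5 bp past the start of the gene, with quartiles at -186.8 and 203 bp. There were 55 summits upstream, 18 inside the gene and 39 beyond its 3′ end. Among the 49 genes with a rank up to 10000 the median was -75 bp and 28 summits were upstream, and among the 63 with a lower place it was 13 bp and 27 were upstream. The 9 genes with an IDR peak had a median of -87 bp, with 6 upstream and none inside the precursor. The direction is not stable, since with a window of 1000 bp the median was 66 bp downstream. In replicate 1 the strongest summits at the 9 genes had a median of -15 bp with 5 upstream, and in replicate 2 a median of -135 bp with 6 upstream. Without the 3 members at peaks of miRNA genes outside the set the median was -44.5 bp, and 45 bp downstream in replicate 1 with 3 of 6 upstream. Since 2 pairs of these genes share a peak, the values are not independent.

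Below the IDR list the strongest regions included some at promoters of host genes. The last member inside the list was mir-2211 at rank 454, and the next were mir-87 at rank 676 and mir-1830 at rank 684. At mir-87 (V: 12038688 to 12038781), in an intron of kup-1, the pooled signal was 138, and the rank was 1902 in replicate 1 and 571 in replicate 2. The gene was thus in the top 642 of replicate 2 and not of replicate 1. At mir-1830, in paic-1, a gene of purine synthesis, the summit lay 195 bp inside the host's 5′ end (signal 137; rank 1893 in replicate 1 and 860 in replicate 2). At mir-62, whose hairpin is a short intron cut out by splicing (a mirtron), the summit was at -14 bp from a 5′ end of the host ugt-50 (rank 976; 2584 in replicate 1 and 788 in replicate 2). At mir-8192 the summit was at -391 bp from a 5′ end of flcn-1, the folliculin homologue (rank 1421; 1879 and 1692 in replicates 1 and 2). At mir-5549 it was at -93 bp from the 5′ end of rfc-4, which encodes a subunit of the clamp loader of DNA replication, and at -448 bp from that of eef-1A.1, an elongation factor gene (rank 1497; 6613 in replicate 1 and 1408 in replicate 2). Of the 15 genes with a pooled rank above 642 and up to 3000, a bound chosen after the values were seen, 10 were intronic. For 8 (53.3%) the summit lay in a protein-coding promoter. This was so for 46.4% of all IDR peaks, which rank higher, and for 32.1% of all 30000 regions. The share for regions of the same ranks was not computed. For 5 of the 8 genes the promoter was that of the host, and the other 3 genes were intergenic.

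The neuronal microRNA gene mir-124 showed the widest gap between replicates among the leading genes. It lies in an intron of trpa-1, an ion channel gene, and its summit was 7 bp upstream of the precursor with a pooled signal of 120 (rank 1017). Replicate 2 placed its region at rank 790 (signal 93.4) and replicate 1 at rank 14026 (signal 22.3). The pooled rank therefore follows replicate 2 at this gene.

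The 247 genes comprised 151 intergenic, 87 intronic and 9 that overlapped an exon of a protein-coding gene they lay within. A pooled region was found at 47 of the 87 intronic genes (54%) and at 60 of the 151 intergenic genes (39.7%). The replicates gave the same order, with 51.7% and 35.1% in replicate 1 and 50.6% and 39.1% in replicate 2. Of all nuclear genes 39.1% had a region in replicate 1 and 38% in replicate 2, and a stretch of the members' median length lies within 500 bp of a pooled summit at 27.1% of all positions of the nuclear chromosomes. The median rank of the region was 11184 at intronic and 15138 at intergenic genes. Host genes on the same strand (67 genes) had a region at 37 (55.2%) and host genes on the opposite strand (20 genes) at 10 (50%). An IDR peak was found at 4 intronic genes (4.6%), all with the host on the same strand, at 4 intergenic genes (2.65%) and at 1 of the 9 exonic genes. These shares were not tested.

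By chromosome, a pooled region was found at 18 of 27 members on III (66.7%), where 65.5% of all nuclear genes had one, and at 13 of 47 on IV (27.7%), where 17.8% did. On IV 14714 of 19704 genes are piRNA genes, and without these the share over all genes there was 48.7%. The members' share was 54.5% on I (all genes 62.3%), 48.8% on II (54.5%), 43.7% on X (51.8%) and 42.9% on V (39.7%). The 6 chromosomes stood in the same order for the members as for all genes only with piRNA genes included. Without piRNA genes the share over all genes was lowest on V (40.5%), while that of the members was lowest on IV. No difference was tested. Chromosome III also held 4 of the 9 genes with an IDR peak, from 3 peaks, and none of the 28 members on V had one. Over all chromosomes 2.64% of nuclear genes had an IDR peak. That share was not computed by chromosome, so nothing about III or V is read from these counts.

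Families listed by name held genes with very different ranks. Of the 8 genes listed for the mir-58 family, 5 had a pooled region and 2 an IDR peak, where 37.9% and 2.64% of all nuclear genes did. The list left out mir-58c, which has the seed of mir-80 and no pooled region. It held mir-2209.2 and mir-2209.3, which do not have that seed. After mir-58.1 and mir-80 came mir-82 (rank 2042), mir-81 (6189) and mir-2209.2 (7654). The summit at mir-82 lay 34 bp inside an annotated 5′ end within its host gid-2, not the outermost one. The pooled list had no region within 500 bp of mir-58.2, mir-2209.1 or mir-2209.3. Replicate 1 had a region (rank 26025) with its summit 244 bp from mir-58.2 and nearer to mir-58c, at 51 bp. In the mir-2 family 3 of 4 genes had a pooled region, mir-43 (357), mir-2 (1763) and mir-250 (5789), and mir-797 had none. The strongest region near mir-2 had rank 841 in replicate 1 and 849 in replicate 2. Its summit was at the first base of the gene in replicate 1 and 170 bp upstream in replicate 2, so these may be different regions. The pooled summit lay 171 bp upstream. In the mir-44 family, mir-44 had rank 357, mir-61 5789 and mir-45 26531, and mir-247 had no region. The region at 357 is shared by mir-43 and mir-44 and is nearer to mir-42, and that at 5789 is shared by mir-250 and mir-61. These ranks are therefore not separate results for the mir-2 and mir-44 families. The genes mir-44 and mir-45, whose 3′ products are identical, thus stood far apart. How reads that align to several places were treated is not given in the sources used here, so regions at copies of near-identical sequence are uncertain.

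The genes mir-63 to mir-66 and mir-229, which share a seed, all had a pooled region and none an IDR peak. All but mir-63 lie close together in gcn-1 (III: 2172452 to 2173206), so their search windows overlap and the genes are not independent. No region was listed at mir-63 in replicate 1 or at mir-66 in replicate 2. The best was mir-229 (rank 1522), in gcn-1, with its summit 149 bp upstream, and its rank was 1928 in replicate 2. The strongest region near it in replicate 1 (rank 667) was another one, with its summit 409 bp upstream. The genes mir-64 and mir-65 shared the region at rank 3726, and mir-63 (14205) and mir-66 (16645) stood lower. The mir-72 family had a region at all 3 genes, with mir-73 and mir-74 sharing the region at 6764 and mir-72 at 6915. Of all nuclear genes 37.9% had a pooled region and 2.64% an IDR peak, and no difference was tested.

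The lists of microRNA genes with well-known roles in later development held no IDR peak, where 2.64% of all nuclear genes had one; nothing about these genes is read from that count. Of 6 developmental timing genes, let-7 (rank 22789) and mir-84 (29463) had a weak pooled region, and lin-4, mir-48, mir-241 and mir-237 had none in the pooled list. Single replicates listed lin-4 (22849 in replicate 1), mir-241 (18692 in replicate 2) and mir-237 (13534 in replicate 2). The annotated let-7 gene is a primary transcript of 1732 bp, so more sequence was searched there than at a precursor. The muscle microRNA gene mir-1 had rank 15785, with 9172 in replicate 1 and 24656 in replicate 2. Of 4 genes listed as neuronal, mir-124 (1017) and mir-273 (11318; 1576 in replicate 1 and 26574 in replicate 2) had a pooled region, and lsy-6, which sets left-right asymmetry of a pair of taste neurons, and mir-791 had none. Of 8 genes listed for stress and lifespan, mir-228 (19332) and mir-34 (24086) had a pooled region, that of mir-34 in neither replicate's list. The other 6 had none in the pooled list. Of these, mir-238 (14536) and mir-83 (25675) had a region in replicate 2, mir-239.1 (18928) had one in replicate 1, and mir-71, mir-239.2 and mir-246 had none in any list. Of 4 mirtrons mir-62 alone had a region in any list. Over all 10 lists, 27 of 47 genes had a pooled region and 4 an IDR peak, where 37.9% and 2.64% of all nuclear genes did. Genes that share a region were each counted. Of the 4, mir-43 and mir-44 share a peak that is nearer to mir-42, outside the set, and no difference was tested.

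**Figure D3:**
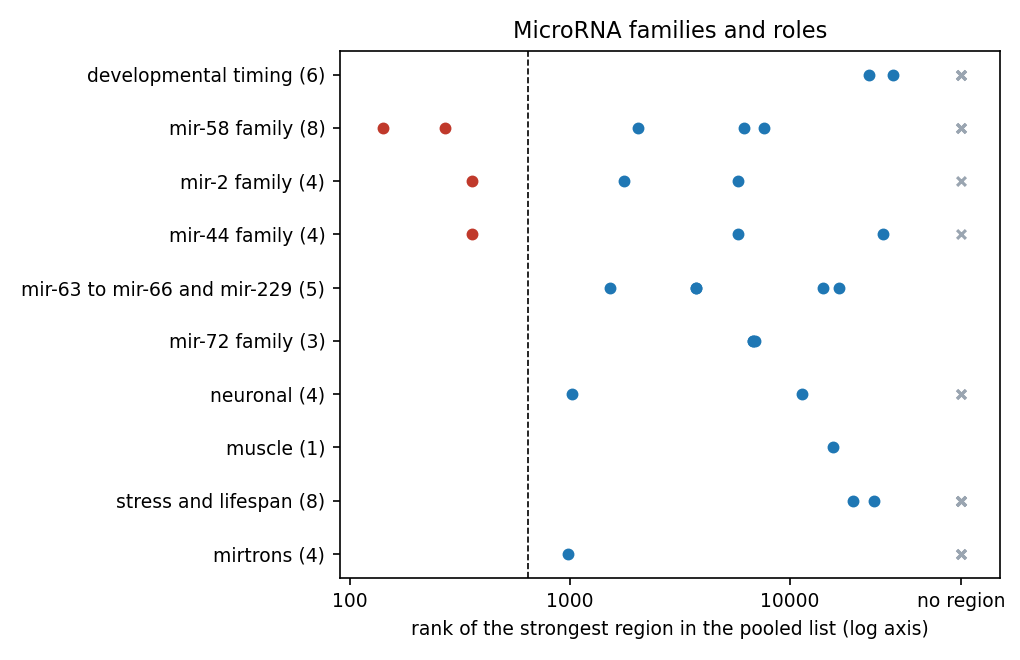
Rank of the strongest pooled region within 500 bp (log axis) for the genes of 10 lists of named genes, with the number of genes in parentheses. Red points are IDR peaks, blue points weaker regions, and crosses genes with no region within 500 bp, which overlap where a list has several. The dashed line marks the end of the IDR list at rank 642. The red points belong to the mir-58, mir-2 and mir-44 families, and those of mir-43 and mir-44 are the same peak.

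The replicates agreed on the leading genes. Each replicate had a region of its own top 642 beside 10 members (4.05%), where the share over all nuclear genes was 2.45% for replicate 1 and 2.6% for replicate 2. In both replicates this held for 9 members (3.64%, against 1.82% of all nuclear genes), and these were the 9 with an IDR peak. The IDR list was made from these replicates, so the match is no independent check. The other gene in replicate 1 was mir-8196.1 (rank 537, against 4007 in replicate 2), and in replicate 2 it was mir-87.

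Among the 9 genes, large differences of rank were seen at mir-55b (158 and 335) and mir-90 (161 and 341), both higher in replicate 1. The strongest regions near mir-86 had ranks 278 and 509, but these were different regions. Near mir-8211, at the same pooled peak, the ranks were 423 and 509. At mir-58.1 and mir-80 the ranks differed by at most 3 places. The ranks of the strongest regions near mir-43 and mir-44 (379 and 382) were also close. Their summits lay 225 bp apart, so they may be different regions. For each of the 7 peaks the distance between the replicates' strongest summits near the gene was taken. It ran from 8 to 225 bp with a median of 86 bp. At mir-86 it was measured between different regions, as may be so at mir-43 and mir-44.

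Below the leading genes the replicates differed more. A region of any strength was listed at 101 members in replicate 1 (40.9%) and 108 in replicate 2 (43.7%), where 39.1% and 38% of all nuclear genes had one. It was listed at 68 members in both and at 106 in neither. The shares of all nuclear genes in both and in neither were not computed, so these counts are not read as particular to the members. The strongest region within 500 bp of the gene was taken in each replicate, and the 2 need not be the same region. Over the 56 distinct pooled regions with such a region in both, Spearman's rho of the ranks was 0.662. Pearson's r on log2 ranks was 0.744, and both are given as a description because the points share the libraries. The replicate summits lay within 100 bp of each other at 21 of the 56 (37.5%), so the values do not measure agreement on matched regions. Of the 56, 28 ranked higher in replicate 1 and 28 in replicate 2, and the median distance between summits was 130.5 bp.

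**Figure D4:**
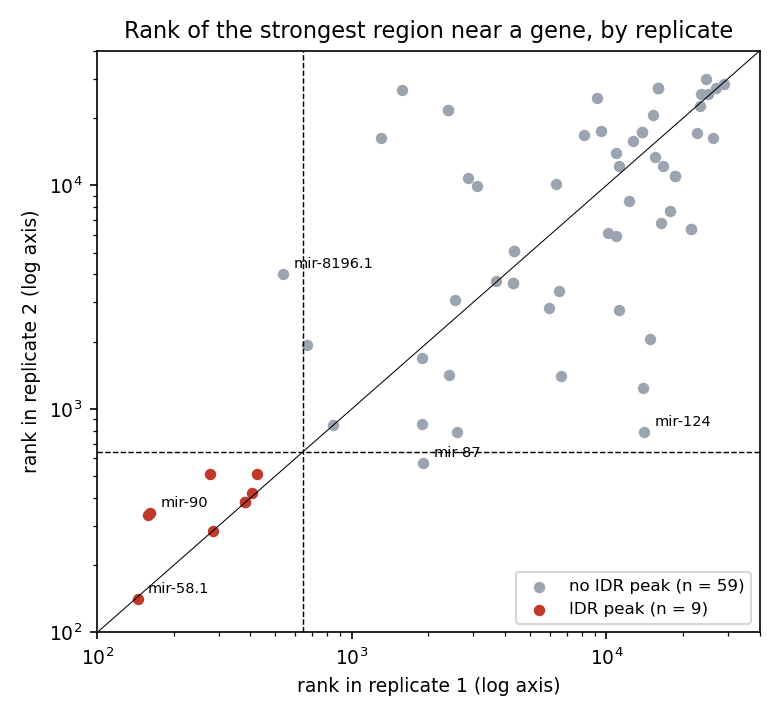
Rank in replicate 2 against rank in replicate 1 (both on log axes) of the strongest region within 500 bp of each gene, for the 68 genes with a region in both, with genes at an IDR peak in red; mir-43 and mir-44 fall on 1 point. Dashed lines mark rank 642 and the diagonal marks equal ranks; the 9 genes with an IDR peak lie inside both lines, while mir-124 (14026 and 790) and mir-8196.1 (537 and 4007) lie far from the diagonal.

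Regions shared by neighbouring genes limit how far the counts describe single genes. The 112 genes with a pooled region had 98 distinct regions, of which 13 were shared by 27 members, among them the antisense pairs mir-356.1 with mir-356.2 and mir-8186.1 with mir-8186.2. Of the 98 summits 28 (28.6%) lay in a protein-coding promoter and 2 within 200 bp of a tRNA or snoRNA gene. The pooled rank of the 112 had a median of 12272.5, and 43.8% stood within rank 10000, where all 17749 nuclear genes with a region had a median of 10352 and 48.9%. A total of 100 members had no region within 500 bp in any of the 3 lists.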

How the data were processed

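The region lists of build ce11 were used as deposited. Per the labels, each list was made from a replicate's alignment, or from both pooled, with a control alignment, and the optimal list kept regions past an IDR threshold. The signal value of each region is the authors', and its scale is not stated. The sources used here do not name the caller, the aligner, their versions or the threshold value. Genes came from the Ensembl annotation of WBcel235, the sequence of ce11, release 115; RefSeq symbols of the same assembly were joined by WormBase ID. The ce10 lists were not used. Coordinates are 1-based.

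Regions were ranked by signal within a list. A gene wholly inside a protein-coding gene was called intronic, or exonic where it overlapped an exon. Genes were named by rule: all with an IDR peak, the next 6 by rank, the listed families, and those whose replicate ranks differed most. Genes named by shared seed or shared region alone (such as mir-785 and mir-8199) were picked after their values were seen. The members and lists were chosen with earlier results of these data known. No test was made, since there was 1 group. Replicates are labelled biological; shares carry exact 95% binomial intervals where given. The assignment of regions to genes was tested on simulated data. Tools were Python 3.11.15, pandas 2.3.3 and SciPy 1.17.1.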

Additional observations from a re-analysis of the deposited data

How the results depend on the processing

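The counts rest on the authors' list, the window and the naming rule. With the stronger 321 peaks, 4 members had a peak, 4 had one with no tRNA, snoRNA, snRNA or rRNA gene near it, and 1 intergenic member had one. With the 3 members at peaks nearer to an excluded miRNA gene left out, an alternative added after seeing the data, 2 intergenic members remained in the count of 4. With a window of 200 bp, 5 members had a top region in both replicates, and with the top 321 of each replicate 2 did. With a window of 1000 bp the median summit position at members with an IDR peak was 66 bp, downstream instead of upstream; 12 members then had a peak, so genes farther from a summit entered the median. From a single replicate's top 642 the count was 10 in either case, and the median position ran from -152.5 to -47 bp. No paired analysis was possible because there is 1 group. Unknown depth limits what the absence of a region can say.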

Other observations

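Members were also grouped by seed. The annotation listed mature products for 246 of the 247 genes, and 43 seeds were shared by at least 2 members. The group with the seed ggcaaga held 6 genes, of which 5 had a pooled region at ranks between 4955 and 7920 and none an IDR peak. These were mir-8187, mir-73, mir-74, mir-72 and mir-266, and mir-73 and mir-74 share a region, so the 5 genes rest on 4 regions. The group was picked for its count after the values were seen, and 37.9% of all nuclear genes had a pooled region. The seeds of the mir-2217 copies had no region at any gene in any of the 3 lists. The gene mir-785, with the seed of mir-86, had rank 28550.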
